A study of Mus musculus with 12 samples.

Results

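Oligodendrocytes, the cells that wrap axons in myelin, arise from precursor cells that stay in the adult brain, and 8 genes that mark successive steps of that lineage are described here in the mouse ventral hippocampus. They are Pdgfra and Cspg4, which mark precursors, Olig1, Olig2 and Sox10, transcription factors of the whole lineage, and Gpr17, Enpp6 and Bcas1, which mark cells committed to becoming oligodendrocytes. They were chosen by symbol, with earlier results of these data known but by no threshold on a measured value, as 8 of the 23183 gene symbols in the tables, and all 8 passed the filter on low counts, as did 14541 genes in all. RNA was sequenced from 12 male wild-type C57BL/6J mice, naive at 8 weeks of age, with 3 mice in each of 4 groups. SES mice were stress-susceptible mice that had daily restraint and then a running wheel, and whose behaviour improved with running. SER mice had the same restraint and wheel, and their behaviour improved little or not at all. SS mice were stress-susceptible after the same restraint and had no wheel. C mice were untreated. Restraint lasted 2 hours a day for 14 days, and wheel access is given as 14 days in the sample titles and as 4 weeks in the protocol. The mice of the 3 stressed groups were sorted into groups by behaviour, so that group and behaviour cannot be told apart. In bulk tissue such as this, fewer cells of a type and less RNA per cell cannot be told apart.

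In the precursor, the receptor encoded by Pdgfra receives platelet-derived growth factor, which keeps the cells dividing and alive, while Olig2 and Sox10 set lineage identity. A precursor that leaves the cycle loses Pdgfra and Cspg4, passes through a short stage with Gpr17, then Enpp6 and Bcas1, and then turns on the myelin genes. In mice, new oligodendrocytes form throughout adult life and more of them form when an animal learns a motor skill on a running wheel. Cspg4 is also used by pericytes of blood vessels, and Pdgfra by fibroblasts of the meninges and vessel walls, so neither is exclusive to precursors in whole tissue.

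Sequences upstream of the transcription start of Pdgfra and Cspg4 are shown because, of 4 genes with a sequence, their levels went together most closely. Among all 8 genes, Olig1 went more closely with Olig2 and with Bcas1. No link between sequence and level was tested. They are the 250 bases before the start in a RefSeq promoter table of build GRCm38.p6 (the same assembly as mm10). Of the 8 genes, 4 were matched to a sequence from it, and a missing match does not show that the table lacks the gene. For Pdgfra and Enpp6 the table's start lies inside the annotated span of the gene given further on. The Enpp6 start is at base 46986887, against a span that begins at base 46939197. The Pdgfra window is chr5:75152001-75152250 on the plus strand, and the Cspg4 window is chr9:56864854-56865103 on the plus strand. Capitals mark the E-box CANNTG, the motif that factors of the OLIG class bind, and the motif ACAAT on either strand, the core bound by SOX factors.
Pdgfra: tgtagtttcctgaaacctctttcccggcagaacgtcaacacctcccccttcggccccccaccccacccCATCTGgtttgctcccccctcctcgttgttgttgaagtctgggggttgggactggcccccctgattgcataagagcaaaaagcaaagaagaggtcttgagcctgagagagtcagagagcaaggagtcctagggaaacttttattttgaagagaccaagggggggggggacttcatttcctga
Cspg4: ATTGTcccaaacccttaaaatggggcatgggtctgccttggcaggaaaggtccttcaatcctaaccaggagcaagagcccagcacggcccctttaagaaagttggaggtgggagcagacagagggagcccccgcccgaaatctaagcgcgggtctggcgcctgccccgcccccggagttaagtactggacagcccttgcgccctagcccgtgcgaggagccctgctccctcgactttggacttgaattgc
The Pdgfra window held 1 E-box, beginning 182 bases before the start, and no ACAAT. The Cspg4 window held no E-box and 1 ACAAT on the other strand, at its far end, 250 bases before the start. Olig2 and Enpp6 each had no E-box and 1 ACAAT. Among 32851 promoter windows of the same length, 66.2% held a CANNTG and 27.7% held an ACAAT on either strand, and the 2 motifs do not overlap in either printed window.

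The libraries held between 9323607 and 15707516 counts. Markers of the labelled tissue were present in all 12, among them Prox1, C1ql2 and Wfs1 of hippocampal neurons. SS mouse 18 stood apart from SS mice 19 and 21. Malat1, a nuclear noncoding RNA, was at 505, 3761 and 5257 CPM (counts scaled to a common library total) in SS mice 18, 19 and 21, against 263 to 505 CPM in C mice. The summed level of 26 mature oligodendrocyte and myelin genes was 12656, 4279 and 4113 CPM in SS mice 18, 19 and 21, against 6834 to 11137 CPM in C mice. Thus SS mouse 18 was the highest of the 12 libraries in myelin genes, and SS mice 19 and 21 the lowest. Ttr, made by the choroid plexus, was at 5095 CPM in SS mouse 18 and at 3546 CPM in C mouse 2. It was also high in SES mouse 10 (4700 CPM), SES mouse 12 (2469 CPM), SER mouse 19 (1080 CPM) and SES mouse 9 (822 CPM), thus in every SES mouse. The remaining libraries had 2.78 to 63.3 CPM of Ttr. A thalamus marker list summed to 271 CPM in SS mouse 18 and to 343 CPM in C mouse 2, against 101 to 150 CPM in the other 10 libraries. Results that rest on these libraries are given with and without them.

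Per kilobase of transcript, which allows genes to be compared, the order of mean levels over the 12 libraries was Bcas1, Olig1, Sox10, Olig2, Pdgfra, Gpr17, Cspg4 and Enpp6. Bcas1 averaged 79.6 ± 32.7 CPM per kilobase and Olig1 64.8 ± 11.0 (SD, n = 12 libraries for these and the next values). Sox10 averaged 12.7 ± 1.11 CPM per kilobase, Olig2 12.3 ± 1.99, Pdgfra 9.43 ± 1.48 and Gpr17 9.07 ± 1.94. Cspg4 averaged 2.22 ± 0.641 CPM per kilobase and Enpp6 0.703 ± 0.265. The neighbours Bcas1 and Olig1, Sox10 and Olig2, and Pdgfra and Gpr17 differed by less than the larger SD of the pair. The steps down from Olig1 to Sox10, from Olig2 to Pdgfra, from Gpr17 to Cspg4 and from Cspg4 to Enpp6 were larger than the SDs.

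Pdgfra is at chromosome 5, bases 75151322 to 75198206 (all gene positions in GRCm38.p6). It was at 76.5, 57.4 and 65.7 CPM in SES mice, at 57.3, 71.1 and 65.7 CPM in SER mice, at 55.2, 75.4 and 60.8 CPM in SS mice, and at 62.8, 46.2 and 48.6 CPM in C mice. All 3 stressed groups averaged above C, but C mouse 2 lay inside their ranges, so no stressed group was separate from C. Of its 2 RefSeq transcripts, the minor one took 6.13% of the gene's counts over all libraries, was listed at 0 in 4 of them and reached 24.9% in C mouse 12. Cspg4, at chromosome 9, bases 56865104 to 56899870, encodes the proteoglycan NG2 on the precursor's surface. Its level was 22.1, 20.2 and 15.8 CPM in SES mice, 17.0, 17.8 and 15.2 CPM in SER mice, 14.3, 30.3 and 22.8 CPM in SS mice, and 16.9, 11.3 and 12.6 CPM in C mice. SS mouse 19 was the highest library and C mouse 8 the lowest, while SS mouse 18 lay among the C mice.

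Olig1 and Olig2 are neighbours on chromosome 16, at bases 91269769 to 91271939 and 91225550 to 91228677, with 41091 bases between them. Olig1, which acts in the maturation of precursors, was at 147, 157 and 104 CPM in SES mice, 161, 124 and 119 CPM in SER mice, 183, 122 and 116 CPM in SS mice, and 139, 140 and 167 CPM in C mice. Olig2, without which the lineage does not form, was at 32.9, 37.8 and 24.9 CPM in SES mice, 34.5, 27.9 and 30.1 CPM in SER mice, 38.9, 30.6 and 24.3 CPM in SS mice, and 26.9, 26.9 and 36.3 CPM in C mice. Every group overlapped every other for both genes, and SS mouse 18 was the highest library for both. Sox10, which activates myelin genes and is kept in mature oligodendrocytes, lies on chromosome 15, bases 79154913 to 79164490. It was at 32.4, 32.3 and 32.2 CPM in SES mice, 41.6, 32.7 and 35.2 CPM in SER mice, 39.1, 33.0 and 32.5 CPM in SS mice, and 34.4, 36.0 and 33.2 CPM in C mice. The 3 SES mice were the 3 lowest of the 12 libraries by a margin that is small beside counting error. Their coefficient of variation was 0.416%, below the 4.60% that counting error alone gives at these counts. Sox10 had the smallest range of the 8 genes, 1.29-fold between the lowest and highest library.

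Gpr17, a receptor that appears briefly in committed precursors, lies on chromosome 18, bases 31942999 to 31949890. It was at 54.3, 43.3 and 40.3 CPM in SES mice, 61.6, 33.8 and 29.8 CPM in SER mice, 51.0, 60.2 and 56.6 CPM in SS mice, and 40.5, 47.8 and 46.3 CPM in C mice. All 3 SS mice lay above all 3 C mice, while the SER mice held both the highest and the 2 lowest libraries of the 12. Enpp6, a choline-specific phosphodiesterase that marks newly forming oligodendrocytes, lies on chromosome 8, bases 46939197 to 47096762. Its level was 3.78, 3.01 and 1.81 CPM in SES mice, 3.39, 1.55 and 4.25 CPM in SER mice, 4.04, 2.98 and 2.63 CPM in SS mice, and 6.64, 4.00 and 3.87 CPM in C mice. All 3 SES mice lay below all 3 C mice. Enpp6 rested on 18 to 71 counts per library, so that counting error alone gives a coefficient of variation of 13.4% in C mice to 18.7% in SER mice. Bcas1, on chromosome 2, bases 170343973 to 170427911, marks early myelinating oligodendrocytes. It was at 193, 270 and 159 CPM in SES mice, 307, 143 and 201 CPM in SER mice, 384, 117 and 112 CPM in SS mice, and 266, 245 and 390 CPM in C mice. SS mice 19 and 21 were the 2 lowest libraries and SS mouse 18 the second highest, after C mouse 12, so the SS group spanned nearly the whole range.

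**Figure D1:**
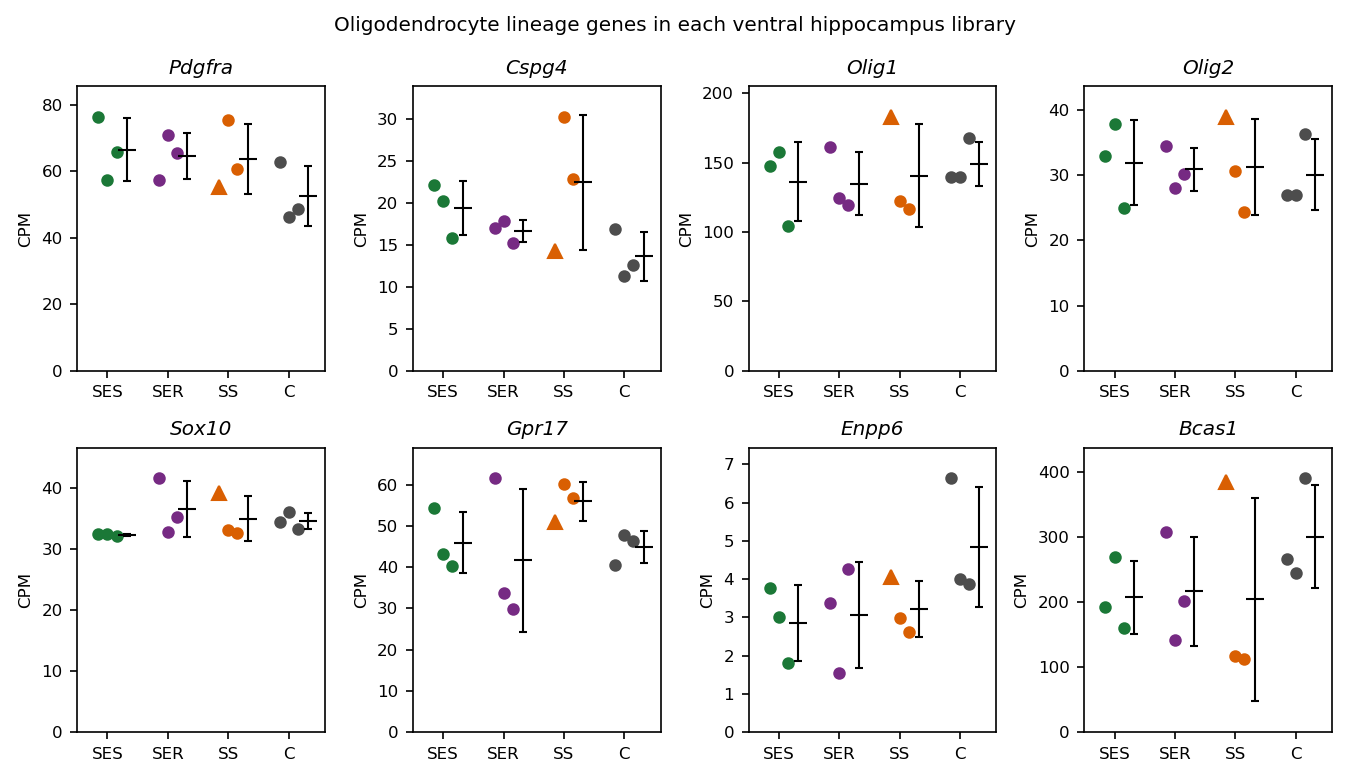
Level of each of the 8 genes in CPM (vertical axis, from 0) in each library of SES, SER, SS and C mice (points; SS mouse 18 is the triangle), with the group mean and SD (n = 3) beside them. Groups overlap for most genes, Gpr17 in SS mice lies above C mice, and SS mouse 18 stands far from the other SS mice for Bcas1, at 384 CPM against 117 and 112 CPM.

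The first comparison set restrained, stress-susceptible mice without running against untreated mice (SS over C). All restrained mice here were stress-susceptible, so restraint and susceptibility to it cannot be told apart. None of the 8 genes passed an adjusted p of 0.05 in edgeR's quasi-likelihood test, while 9.83% of all genes tested did. Cspg4 came nearest: it averaged 22.5 ± 8.01 CPM in SS mice and 13.6 ± 2.92 CPM in C mice (SD, n = 3 each), a log2 fold change of 0.73 ± 0.24 (SE; 95% interval 0.22 to 1.24; edgeR adjusted p = 0.0641). Estimates on the same log2 scale were 0.28 ± 0.15 for Pdgfra (adjusted p = 0.246) and 0.32 ± 0.21 for Gpr17 (adjusted p = 0.362). Enpp6 had -0.59 ± 0.37 (adjusted p = 0.331; -0.30 without C mouse 2) and Bcas1 -0.56 ± 0.42 (adjusted p = 0.411). For Olig1, Olig2 and Sox10 the estimates were -0.08, 0.05 and 0.01. Gpr17 was the only 1 of the 8 whose groups did not overlap, against 26.9% of all genes. The median log2 fold change of the 8 was 0.03, beside 0.02 over all genes tested. Of 9 pericyte and smooth muscle markers, whose cells share Cspg4, Acta2 fell (-1.03 ± 0.27, adjusted p = 0.0359) and the other 8 did not pass. They summed to 93.1 to 112 CPM in SS mice and 101 to 138 CPM in C mice, and their part in the Cspg4 values was not tested. The 6 neuron markers summed to 5461 to 6034 CPM in SS mice and 6610 to 6918 CPM in C mice, which was not tested beside these genes either.

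Leaving out SS mouse 18 changed this comparison. Without it SS mice 19 and 21 remained, 25.7% of all genes passed, and 2 of the 8 did, a share near that of all genes. These were Cspg4, with a log2 fold change of 0.96 ± 0.19 (edgeR adjusted p = 0.00236), and Bcas1, with -1.40 ± 0.29 (adjusted p = 0.00319). SS mouse 18 was singled out from these same data, in part by its myelin genes, which Bcas1 follows, so these p-values are not independent support. When only SS mouse 18 stood for the SS group, with its spread assumed to be that of the other groups, Cspg4 was at 0.07 (adjusted p = 0.932) and Bcas1 at 0.35 (adjusted p = 0.685). Without SS mouse 19, Cspg4 was at 0.45 (adjusted p = 0.297) and Bcas1 at -0.28, and without SS mouse 21 Bcas1 was at -0.27. As single libraries, SS mice 19 and 21 were high in Cspg4 and low in Bcas1, and SS mouse 18 was within the range of C mice for both. With SS mouse 18 and C mouse 2 both left out, 2 SS mice were set against 2 C mice. Of all genes 24.8% then passed, among them Cspg4 at 1.14 ± 0.19, Bcas1 at -1.48 ± 0.31 and Pdgfra at 0.51 ± 0.15 (adjusted p = 0.0259). C mouse 2 was the highest of the C mice in Cspg4 (16.9 CPM) and in Pdgfra (62.8 CPM), so leaving it out lowered the C level of both. With DESeq2's Wald test on all 12 libraries, 15.3% of genes passed and Cspg4 was among them (log2 fold change 0.73, adjusted p = 0.0274). SS mice 19 and 21 are also the libraries with the highest nuclear noncoding RNAs, a sum of 9965 and 11542 CPM, while SS mouse 18 at 983 CPM lay inside the 864 to 1352 CPM of C mice. With the mean log2 CPM of those RNAs as a covariate, no gene of the whole table passed, and Cspg4 was at 0.15 (adjusted p = 0.792) and Bcas1 at 0.04 (adjusted p = 0.971). With the mean log2 CPM of the myelin genes as a covariate, Bcas1 was at -0.19 and Cspg4 at 0.58 (adjusted p = 0.197). Bcas1 follows the myelin genes so closely (r = 0.98 with their sum) that this fit cannot separate its difference from theirs.

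**Figure D2:**
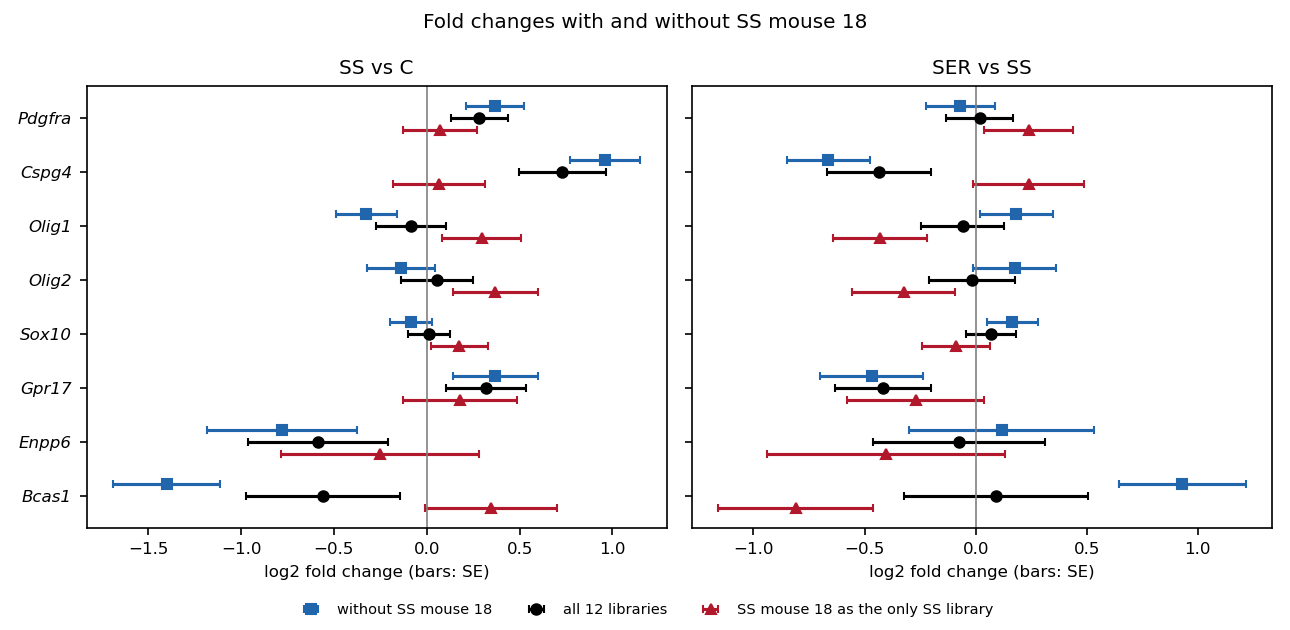
Log2 fold change of each gene (horizontal axis; bars are SE) for SS over C and for SER over SS, without SS mouse 18 (squares), with all 12 libraries (circles) and with only SS mouse 18 in the SS group (triangles). Bcas1 is at -1.40, -0.56 and 0.35 for SS over C under the 3 choices, and Cspg4 at 0.96, 0.73 and 0.07.

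The next comparisons asked what running changed in stressed mice, by response. They share the SS mice, and SES over SS and SER over SS are given side by side. In SES over SS no gene of the whole table passed in edgeR (0%). Before adjustment 1310 genes were under 0.05, and the DESeq2 test called 13 genes. In SER over SS 0.0481% of genes passed, none of them among the 8. Cspg4 averaged 19.4 ± 3.22 CPM in SES mice, 16.7 ± 1.35 CPM in SER mice and 22.5 ± 8.01 CPM in SS mice, with log2 fold changes of -0.22 ± 0.23 for SES over SS (edgeR adjusted p = 0.782) and -0.43 ± 0.23 for SER over SS (adjusted p = 0.345). Gpr17 averaged 45.9 ± 7.35 CPM in SES mice, 41.7 ± 17.3 CPM in SER mice and 55.9 ± 4.63 CPM in SS mice, with -0.28 ± 0.21 (adjusted p = 0.690) for SES over SS and -0.42 ± 0.22 (adjusted p = 0.326) for SER over SS. In SER over SS the Gpr17 estimate was -0.81 without SER mouse 6 and -0.22 without SER mouse 20, and that of Cspg4 was -0.16 without SS mouse 19. The other 6 genes lay between -0.15 and 0.09 in both comparisons. Sox10 was the only gene of the 8 whose groups did not overlap in SES over SS, being lower in SES mice, against 12.2% of all genes. In SER over SS none of the 8 was free of overlap, against 16.9% of all genes.

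These comparisons also turned on SS mouse 18, which was singled out from these same data. Removing it left only SS mice 19 and 21 in that group. Without it, 8.69% of all genes passed in SES over SS, none of them among the 8: Bcas1 was at 0.86 ± 0.28 (edgeR adjusted p = 0.0773) and Cspg4 at -0.45 ± 0.18 (adjusted p = 0.144). In SER over SS 16.5% of genes passed without it, and Bcas1 rose, at 0.93 ± 0.28 (adjusted p = 0.0388), while Cspg4 fell, at -0.66 ± 0.19 (adjusted p = 0.0273). With only SS mouse 18 in the SS group, the estimates for SER over SS had the other sign, -0.81 for Bcas1 (adjusted p = 0.421) and 0.24 for Cspg4 (adjusted p = 0.762). Without SS mouse 18 and C mouse 2, 17.5% of genes passed in SER over SS, again with Cspg4 at -0.66 and Bcas1 at 0.93.

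Effective and ineffective responders were compared directly (SES over SER). Of all genes tested 0.0275% passed, none of them among the 8, and every adjusted p of the 8 was 1.00 to 3 digits. The largest estimate was that of Cspg4, 0.22 ± 0.23 (95% interval -0.29 to 0.72), and Sox10 followed with -0.18 ± 0.11 (95% interval -0.42 to 0.06). Sox10 averaged 32.3 ± 0.134 CPM in SES mice and 36.5 ± 4.54 CPM in SER mice (SD, n = 3 each), and was the only gene of the 8 without overlap, against 10.8% of all genes. For Bcas1 the 95% interval ran from -0.96 to 0.83 and for Enpp6 from -0.90 to 0.75, so that a difference of 1.5-fold in either direction lay inside both intervals. For Pdgfra the interval was -0.28 to 0.37 and for Olig1 -0.39 to 0.42.

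Both running groups were then set against C mice, which all comparisons with C share. In SES over C 0.179% of genes passed and in SER over C 1.19%, none of them among the 8 in either. Pdgfra averaged 66.6 ± 9.58 CPM in SES mice, 64.7 ± 6.93 CPM in SER mice and 52.5 ± 9.01 CPM in C mice, with log2 fold changes of 0.34 ± 0.15 for SES over C (edgeR adjusted p = 0.291) and 0.30 ± 0.15 for SER over C (adjusted p = 0.317). Cspg4 was at 0.51 ± 0.23 in SES over C (adjusted p = 0.304) and at 0.30 ± 0.24 in SER over C (adjusted p = 0.546). Enpp6 was at -0.74 ± 0.37 in SES over C (adjusted p = 0.343) and at -0.66 ± 0.38 in SER over C (adjusted p = 0.376), and Bcas1 at -0.54 ± 0.41 (adjusted p = 0.538) and -0.47 ± 0.41 (adjusted p = 0.586). Without C mouse 2, the library highest in Enpp6, the Enpp6 estimates were -0.45 in SES over C and -0.37 in SER over C, and without SER mouse 19 SER over C gave -0.34. Sox10 and Enpp6 did not overlap between SES and C mice, both lower in SES mice, against 26% of all genes, and none of the 8 was free of overlap in SER over C, against 25.3%. C mouse 2 was also the highest of the C mice in Cspg4. Without it and SS mouse 18, 6.31% of genes passed in SES over C and Cspg4 was among them, at 0.69 ± 0.18 (adjusted p = 0.0386). In that comparison the fibroblast markers that share Pdgfra summed to 123 to 160 CPM in SES mice and 88.6 to 172 CPM in C mice, and their part in the Pdgfra values was not tested.

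**Figure D3:**
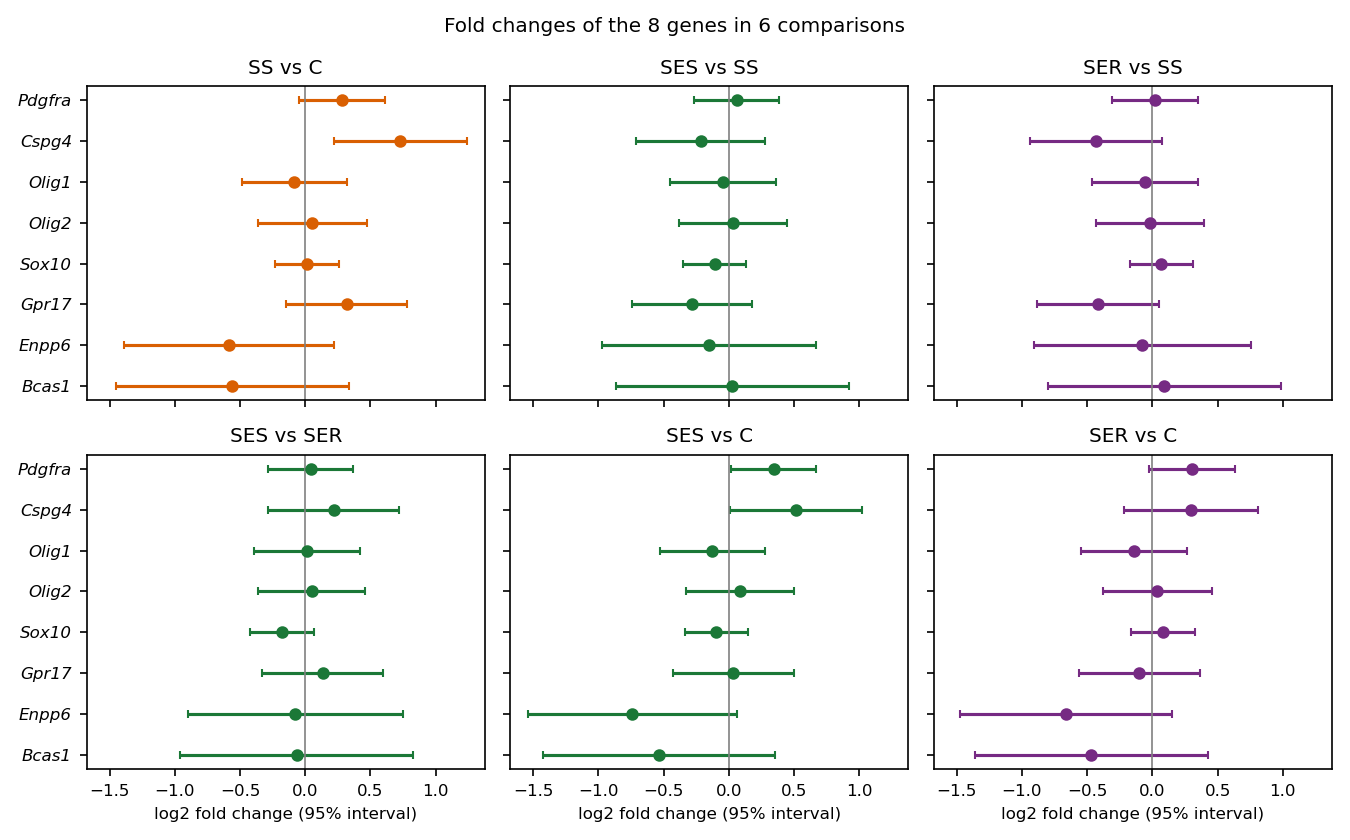
Log2 fold change (horizontal axis) of each gene in 6 comparisons of 3 against 3 mice, with 95% intervals. The interval of Cspg4 in SS over C runs from 0.22 to 1.24, those of Bcas1 and Enpp6 are the widest, and no gene passed an adjusted p of 0.05.

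The 8 genes did not vary as 1 group over the 12 libraries. Correlations of log2 CPM are given as descriptions: the points share groups of 3 mice, and SS mice 19 and 21 weigh on many of them. Pdgfra and Cspg4 had a Pearson r of 0.76 (0.78 over the 9 libraries without SS mice, and 0.53 without the 2 libraries farthest in Pdgfra). Olig1 had an r of 0.85 with Olig2 and 0.85 with Bcas1 (0.81 and 0.83 over the 9 libraries without SS mice). Bcas1 ran opposite to both precursor markers, with an r of -0.67 with Pdgfra and -0.67 with Cspg4. Over the 9 libraries without SS mice these were -0.73 and -0.33. Over the 12 libraries Gpr17 followed none of the others closely, with r between -0.09 and 0.38. Over the 9 libraries without SS mice its r was 0.66 with Olig1, 0.50 with Bcas1 and between -0.29 and 0.43 with the others. The ratio of Olig1 to Olig2 per kilobase stayed between 4.64 and 6.08 over the 12 libraries, whereas that of Bcas1 to Pdgfra ran between 3.48 in SS mouse 19 and 18.2 in C mouse 12.

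**Figure D4:**
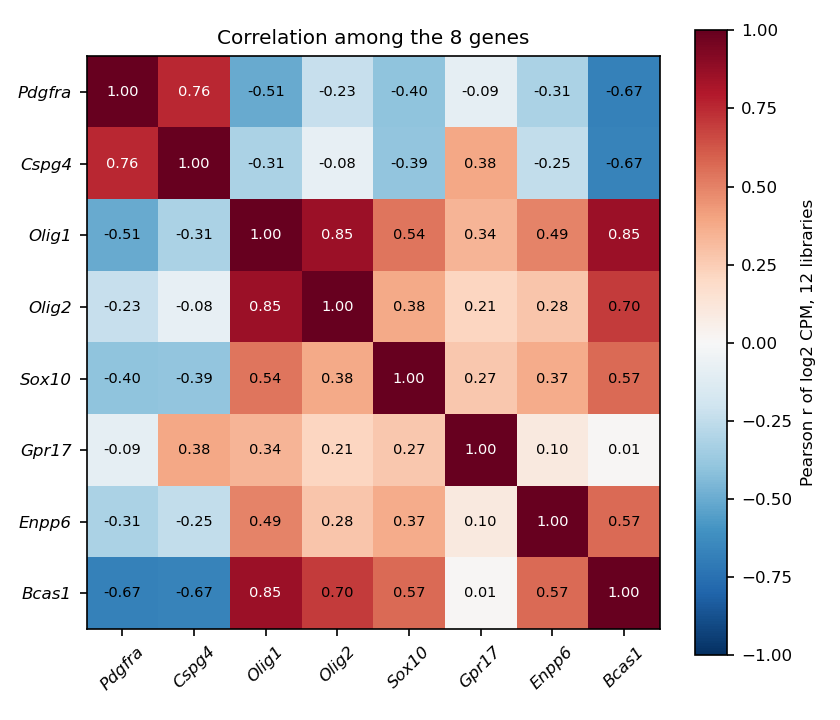
Pearson r of log2 CPM between each pair of the 8 genes over 12 libraries (colour and printed value). Pdgfra and Cspg4 form a pair (0.76), Olig1, Olig2 and Bcas1 a second block (0.70 to 0.85), and Bcas1 is negative with both precursor markers (-0.67).

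Bcas1 went with the myelin genes. Its level had an r of 0.98 with the summed level of the 26 myelin genes, none of which is Bcas1 (0.96 over the 9 libraries without SS mice), and it amounted to 2.66% to 3.59% of that sum in every library. The gene most like it of all those tested was Mbp, encoding myelin basic protein (r = 0.99), followed by Adamts4, a protease of mature oligodendrocytes (0.97), and Pdlim2 (0.97). Of the 100 genes most like each, 14 were myelin genes for Bcas1, 15 for Olig1, 6 for Olig2 and 5 for Enpp6, and none for Pdgfra, Cspg4, Sox10 or Gpr17. Nearest to Olig1 were Cryab (0.96), Ormdl2 and 1600014C10Rik, and nearest to Olig2 were Loh12cr1 (0.89), Olig1 and Lag3. For Cspg4 the nearest were Sidt2 (0.95), Itga4 and Shisa7, and its r with the summed nuclear noncoding RNAs was 0.87 (0.79 over the 9 libraries without SS mice). Pdgfra was nearest to Rnf145 (0.89), Trpc4 and Sez6, and had an r of 0.70 with the summed level of 15 other precursor markers. That r was 0.63 over the 9 libraries without SS mice and 0.50 without the 2 libraries farthest in the sum. Of the 15 markers, 1 was among the 100 genes most like Pdgfra and none among those most like Cspg4. Sox10 was nearest to Gprc5b (0.87), Mnd1 and Rhobtb3, Gpr17 to Gga3 (0.93), Sfpq and Ncoa5, and Enpp6 to Gm13446 (0.89), Plxdc2 and Zfp74.

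**Figure D5:**
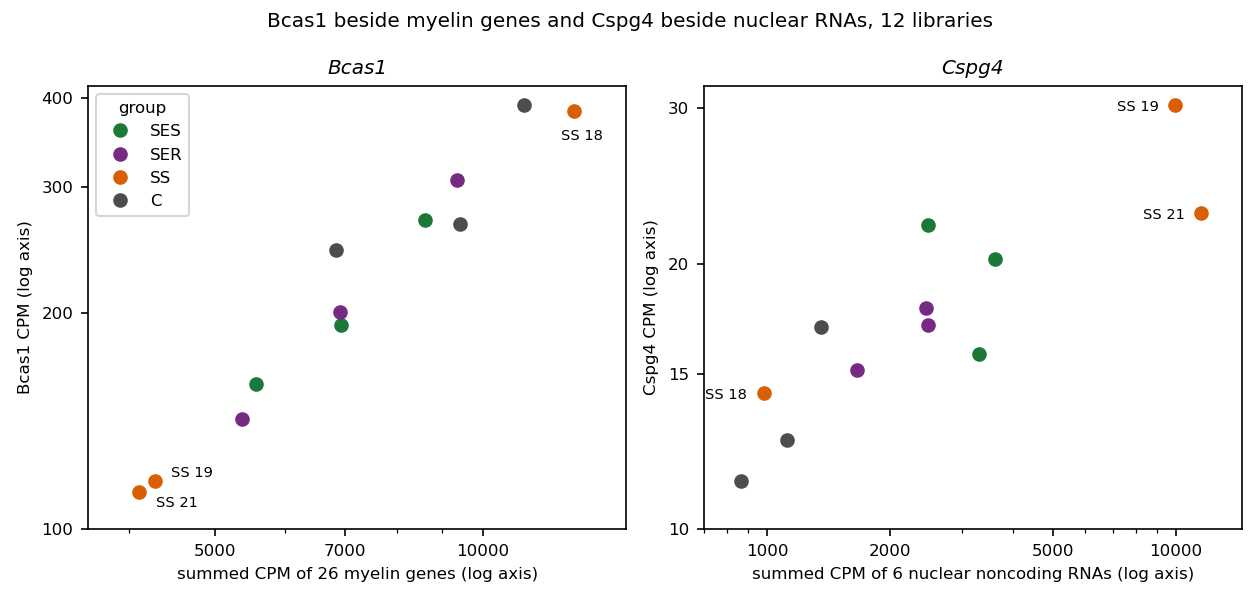
Bcas1 (left, CPM, log axis) against the summed CPM of 26 myelin genes (log axis), and Cspg4 (right) against the summed CPM of 6 nuclear noncoding RNAs (log axis), 1 point per library coloured by SES, SER, SS and C. SS mice 19 and 21 lie at the low end for Bcas1 and at the high end for Cspg4, and SS mouse 18 at the other end near C mice.

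The spread between mice of a group differed widely among the 8. The within-group SD of Bcas1 was larger than that of 94.6% of all genes tested, and that of Sox10 larger than only 17.0%. Between the lowest and the highest library, Enpp6 differed 4.29-fold, Bcas1 3.47-fold, Cspg4 2.67-fold, Gpr17 2.07-fold, Olig1 1.76-fold, Pdgfra 1.66-fold and Olig2 1.60-fold.

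Other genes of the lineage were read from 5 lists. Of 15 further precursor markers none passed in any of the 6 comparisons. In SS over C 5 of the 15 had an unadjusted edgeR p under 0.05, beside 4105 of all 14541 genes tested. The lowest were Matn4, a matrix protein (log2 fold change 0.72 ± 0.22, edgeR adjusted p = 0.0528), and Vcan, the proteoglycan versican (0.52 ± 0.17, adjusted p = 0.0708). The median log2 fold change of the 15 was 0.12, beside 0.02 over all genes. Without SS mouse 18, 3 of the 15 rose in SS over C (Matn4, Pcdh15 and Vcan), where 25.7% of all genes passed in either direction. Of 25 transcription regulators, 3 rose and 1 fell in SS over C, where 9.83% of all genes passed in either direction. Zfp488, a zinc finger protein that works with Olig2 in maturation, averaged 40.7 ± 17.2 CPM in SS mice and 19.9 ± 1.95 CPM in C mice (log2 fold change 1.03 ± 0.28, adjusted p = 0.0382). Smarca4, the motor of a chromatin remodeller that Olig2 recruits, was at 0.43 ± 0.09 (adjusted p = 0.0231), and Carm1, an arginine methyltransferase, at 0.38 ± 0.11 (adjusted p = 0.0438). Hdac2, a histone deacetylase that acts with Hdac1 in differentiation, fell, at -0.31 ± 0.09 (adjusted p = 0.0484). Without SS mouse 18 these 4 genes passed as well, but without SS mouse 19, SS mouse 21, C mouse 8 or C mouse 12 none of them did, with adjusted p up to 0.168 for Zfp488, 0.124 for Smarca4, 0.155 for Carm1 and 0.197 for Hdac2. Of 12 fits with 1 library left out, Smarca4 was called in 8, Zfp488 in 5, Hdac2 in 3 and Carm1 in 2. Hdac2 and Carm1 also lost their calls without SES mouse 9, SES mouse 10, SER mouse 6 or SER mouse 20, all outside the comparison. Zfp488 also lost its call without SES mouse 9 or SES mouse 12, likewise outside it, and without C mouse 2. Sox9, also an astrocyte marker, was the only regulator that passed elsewhere: it averaged 97.7 ± 2.54 CPM in SER mice, against 56.6 ± 4.52 CPM in SS mice (0.79 ± 0.11, adjusted p = 0.0179) and 58.4 ± 9.47 CPM in C mice (0.74 ± 0.11, adjusted p = 0.0142). Both Sox9 calls were lost without SER mouse 6 or SER mouse 20, and the one over SS also without SS mouse 19 or SS mouse 21 (adjusted p up to 0.168 over SS and 0.0702 over C).

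Of 18 tested genes of committed precursors and newly formed oligodendrocytes, 1 passed in any comparison. This was Itpr2, a calcium channel of the endoplasmic reticulum used as a marker of newly formed oligodendrocytes. It rose in SER over C, where 1.19% of all genes passed in either direction. Itpr2 averaged 38.7 ± 2.60 CPM in SER mice, against 25.4 ± 1.89 CPM in C mice (log2 fold change 0.61 ± 0.11, edgeR adjusted p = 0.0310). In the same comparison 4 of 10 astrocyte markers rose and none fell. That list summed to 8978 to 10274 CPM in SER mice and 6474 to 7236 CPM in C mice, which was not tested beside Itpr2. Of 29 tested growth factors, receptors and signals, Fgfr3, a receptor for fibroblast growth factors that astrocytes also use, rose in SS over C (0.42 ± 0.11, adjusted p = 0.0362) and in SER over C (0.58 ± 0.11, adjusted p = 0.0366). Igf1, a growth factor for the lineage that microglia also make, fell in SS over C to 9.33 ± 0.833 CPM in SS mice, against 13.8 ± 0.820 CPM in C mice (-0.56 ± 0.13, adjusted p = 0.0285). Of the 26 myelin genes, Opalin, a membrane protein of myelin, was the only 1 that passed in any comparison. It averaged 8.03 ± 1.49 CPM in SES mice, 11.6 ± 4.28 CPM in SER mice, 14.99 ± 3.71 CPM in SS mice and 30.1 ± 5.70 CPM in C mice (-1.90 ± 0.25 for SES over C, adjusted p = 0.00885; -1.38 ± 0.25 for SER over C, adjusted p = 0.0325; -1.01 ± 0.24 for SS over C, adjusted p = 0.0285). Opalin thus fell in all 3 stressed groups against C mice, while its list's median in those comparisons was -0.46 for SES over C, -0.32 for SER over C and -0.34 for SS over C, beside medians over all genes of 0.00, -0.01 and 0.02. The calls of Igf1, Fgfr3 and Opalin in SS over C were lost without SS mouse 19, SS mouse 21, C mouse 8 or C mouse 12, with adjusted p up to 0.134, 0.135 and 0.124. In SS over C the Fgfr3 call was also lost without SES mouse 12 or SER mouse 20, and the Opalin call without C mouse 2. That of Opalin in SES over C was lost without SES mouse 9 or SES mouse 12 (adjusted p up to 0.0908). In SER over C, Itpr2 was called in 8 of 12 fits with 1 library left out, Opalin in 7 and Fgfr3 in 6, and all 3 calls were lost without SER mouse 6 or C mouse 12. Without SS mouse 18, 18 of the 26 myelin genes fell in SS over C, with a median of -0.98, where 25.7% of all genes passed in either direction. SS mouse 18 was itself the highest library in the summed myelin genes, so its removal lowered their SS level.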

How the data were processed

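The authors deposited 1 table per mouse of whole-number estimated counts for 33299 RefSeq transcripts, not normalized. Per the submitters' processing notes, TopHat and build mm10 were used. The counting program is not given in the sources used here, nor is the strand setting. Per the labels' protocols, each library was built from 1.3 µg of Trizol-extracted total RNA with a directional NEBNext kit.

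Transcript counts were summed per gene symbol. Genes were filtered with filterByExpr (minimum count 10), scaled by TMM (factors 0.970 to 1.04) and tested with edgeR 4.0.16 (quasi-likelihood, 1 fit of 12 libraries, R 4.3.3), with Benjamini-Hochberg adjustment over 14541 genes and a threshold of 0.05. The biological coefficient of variation was 15.7%. Alternatives used DESeq2 1.42.0 and limma 3.58.1. Correlations used log2 CPM with a prior count of 2. Named genes were the 8 genes, up to 4 called genes (or the 2 with the smallest p) of each list, and the 3 nearest genes of each of the 8. The 8 genes and the lists were chosen with earlier results of these data known. The labels give nothing on dissection or library batches. No 2 libraries had identical values. Counts limit precision: counting error alone is quoted where it matters, and covers counting only.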

Additional observations from a re-analysis of the deposited data

How the results depend on the processing

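Under 23 alternatives, 994 of 1104 log2 fold changes of the 8 genes kept their direction and their side of the threshold, 99 changed sign with no call in either, 11 became calls, and none that was called reversed. In SS over C the number of the 8 called was 1 with DESeq2's Wald test, 3 without C mouse 2 and SS mouse 18, and 0 to 2 when 1 library at a time was left out. In SER over SS 2 of the 8 were called with both of those libraries left out, and 0 to 2 when 1 library was left out, and in SES over C 1 was called with both left out. Every other setting called 0 of the 8 in each comparison. Over all genes, the 1430 calls of SS over C were 2219 with DESeq2's Wald test, 405 with the myelin covariate, 0 with the nuclear RNA covariate, 0 with only both groups fitted, 2 on transcripts as deposited, 3644 without C mouse 2 and SS mouse 18, 0 with SS mouse 18 alone, and 0 to 3797 with 1 library left out, the lowest without SS mouse 19, SS mouse 21 or C mouse 8 and the highest without SS mouse 18. The 173 calls of SER over C ran from 6 to 796, the 26 of SES over C from 0 to 929, the 7 of SER over SS from 3 to 2573, the 0 of SES over SS from 0 to 1430, and the 4 of SES over SER from 3 to 6. Causes of these changes were not tested. No paired analysis was possible because any 2 groups share at most 1 mouse number. Enpp6, at 18 to 71 counts per library, is the gene most limited by depth.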
